A study of Homo sapiens with 9 samples.

Results

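Stable promoters of protein-coding genes that face a single direction numbered 8208 among 109960 open chromatin regions of HepG2 cells, which derive from a human liver cancer. These regions were chosen from measured peaks by a rule. The intervals of 3 ATAC-seq peak lists were merged over chromosomes 1 to 22. A merged region was kept when each of the 3 lists had a peak in it, when it overlapped 1 kb either side of the start of a protein-coding transcript, and when all such starts lay on a single strand. ATAC-seq inserts sequencing adapters into accessible DNA with a transposase, so a peak marks open chromatin. The cells had received 50 nM of a non-targeting siRNA (NTG) or of an siRNA against INO80, named siINO80#1 or siINO80#2, and were harvested 72 hours later, with 3 replicates in each of 3 groups. The peaks of each group's 3 replicates came as 1 list, so no value per replicate entered, no spread between replicates could be given and no test between groups was made. HepG2 stands here for a tumor-derived hepatocyte lineage, and the lists do not measure how far INO80 was depleted.

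At an active promoter, nucleosomes are displaced from the stretch just before the transcription start, and sequence-specific factors and the preinitiation complex occupy the open DNA. Most promoters of broadly used genes lie in CpG islands, stretches rich in the dinucleotide CG, and carry binding letters for factors such as SP/KLF, NFY, ETS proteins, NRF1 and YY1. Tissue-specific promoters more often hold a TATA box and little CpG. INO80 is the ATPase of a remodeling complex that slides and edits nucleosomes, including those next to transcription starts.

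The sequences of 7 members were read from GRCh37 to show what such promoters hold. Each is the member of highest rank in all 3 lists that carried the named motif, and each runs 5′ to 3′ along the direction of transcription from 100 bases before the reference start of the gene to the 50th base from it. Capitals mark the motif on either strand. ZNF519 encodes a zinc finger protein, KIFAP3 a kinesin-associated protein, EXOC4 a subunit of the exocyst and POT1 a telomere-binding protein. HSF2 is a heat shock transcription factor and CEP97 a centrosomal protein.
ZNF519, ETS, chr18:14132385-14132534, minus strand: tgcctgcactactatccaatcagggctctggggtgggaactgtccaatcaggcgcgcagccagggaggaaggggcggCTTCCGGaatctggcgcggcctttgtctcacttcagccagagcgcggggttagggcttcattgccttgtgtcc
KIFAP3, NRF1, chr1:170043787-170043936, minus strand: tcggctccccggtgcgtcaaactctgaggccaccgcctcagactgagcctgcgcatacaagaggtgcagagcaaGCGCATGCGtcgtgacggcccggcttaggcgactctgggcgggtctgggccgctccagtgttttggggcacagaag
EXOC4, YY1, chr7:132937734-132937883, plus strand: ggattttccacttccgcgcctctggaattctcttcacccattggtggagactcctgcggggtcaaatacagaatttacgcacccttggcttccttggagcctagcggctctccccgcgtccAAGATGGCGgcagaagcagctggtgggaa
POT1, CRE, chr7:124569830-124569979, minus strand: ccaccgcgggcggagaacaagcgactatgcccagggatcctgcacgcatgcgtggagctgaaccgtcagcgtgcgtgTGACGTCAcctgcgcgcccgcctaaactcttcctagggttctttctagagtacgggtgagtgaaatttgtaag
FAM72D, CCAAT box, chr1:143913120-143913269, minus strand: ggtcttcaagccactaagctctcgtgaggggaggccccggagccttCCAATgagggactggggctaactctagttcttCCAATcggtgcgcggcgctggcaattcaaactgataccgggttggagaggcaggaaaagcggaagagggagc
HSF2, E box, chr6:122720697-122720846, plus strand: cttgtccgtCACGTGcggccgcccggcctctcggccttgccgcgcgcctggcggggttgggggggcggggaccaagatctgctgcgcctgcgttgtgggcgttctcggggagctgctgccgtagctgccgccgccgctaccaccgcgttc
CEP97, ZNF143, chr3:101443358-101443507, plus strand: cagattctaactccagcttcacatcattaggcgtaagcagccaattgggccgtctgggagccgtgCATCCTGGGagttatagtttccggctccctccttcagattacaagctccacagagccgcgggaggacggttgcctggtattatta

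In ZNF519 the ETS letters began 23 bases before the start, directly after a GC box that began 29 bases before it. The YY1 letters of EXOC4 began 21 bases after the start and read along the gene. FAM72D carried a pair of CCAAT boxes, 54 and 22 bases before the start. FAM72D belongs to a family of near-identical copies, so its reads may have come from more than a single copy.

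Regions with a peak in all 3 lists made up 26.7% of all merged regions. Among 13188 merged regions at single-direction protein-coding starts, 62.2% (95% Wilson interval 61.4 to 63.1) had a peak in all 3 lists, which is the criterion that made them members. The interval covers counting error only and treats regions as independent. Of the rest, 1485 were found in NTG and in neither depletion list, 1248 in the siINO80#1 list only and 433 in the siINO80#2 list only. A further 1285 had a peak in NTG and siINO80#1, 213 in NTG and siINO80#2, and 316 in both depletion lists but not in NTG. The siINO80#2 list was the shortest, with 53113 peaks against 69730 in NTG and 69333 in siINO80#1, so a region without a peak there cannot be told apart from a list with fewer peaks. The same share was 79.4% (77.3 to 81.4) of 1491 regions with protein-coding starts in both directions, 40.9% (39.3 to 42.5) of 3675 regions at lncRNA starts and 19.9% (19.6 to 20.1) of 87674 regions away from annotated starts.

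The members lay on both strands about equally, 4185 on the plus and 4023 on the minus strand, and covered 8.57 Mb with a median merged width of 976 bp. They touched starts of 7539 protein-coding genes, of which 733 had more than a single member. A member held a median of 3 annotated coding starts, and 8044 members served 1 gene. The reference start of a gene (the MANE Select transcript, or else the canonical or principal one) lay within 1 kb of 7211 members, and 997 members touched other coding starts only. Although no coding start faced the other way, 2089 members (25.5%) had the start of a lncRNA on the opposite strand within 1 kb.

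Peak strength was described by fold enrichment, the ratio of reads at the summit over the local background of the same list. The median fold enrichment of members was 5.61 in NTG, 5.23 in siINO80#1 and 4.40 in siINO80#2. Single members ranged from 1.79 to 20.5, from 1.59 to 27.8 and from 1.71 to 19.5 in these lists. Because each list has its own depth and background, strength was then ranked within a list, as a percentile among the 29350 regions with a peak in all 3 lists. The median member stood at percentile 60.8 in NTG, 59.3 in siINO80#1 and 56.9 in siINO80#2, so members were on the stronger side of shared peaks in each list. Regions with coding starts in both directions stood higher, at 67.7, 66.0 and 65.9, and regions away from starts lower, at 44.5, 45.8 and 47.5. Members at a reference start had medians of 62.5, 61.6 and 59.0, against 45.1, 43.5 and 42.9 for members that touched only another coding start.

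The promoter of FAM72D was the strongest member in NTG and siINO80#1, with fold enrichments of 20.5 in NTG, 27.8 in siINO80#1 and 16.1 in siINO80#2. SNX16, which encodes a sorting nexin of endosomes, had 16.7, 19.9 and 19.5 and was the strongest member in siINO80#2. CCDC150 stood at 16.6, 18.1 and 15.2, ZNF519 at 17.6, 18.0 and 14.5, HSF2 at 15.7, 15.4 and 13.9, and MSANTD4 at 15.6, 16.1 and 13.7. In each of these 6 promoters the strongest summit lay upstream of the reference start in all 3 lists, from -102 bp in CCDC150 to -341 bp in SNX16. The FAM72D peak covered 645, 623 and 354 bp in the same order.

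The weakest members are named by gene, but most of these regions did not hold the reference start of that gene. ID2, an inhibitor of basic helix-loop-helix factors, had fold enrichments of 1.79 in NTG, 1.59 in siINO80#1 and 1.71 in siINO80#2, and its summits lay 566, 737 and 637 bp before the reference start. PAX9, a developmental transcription factor, had 2.10, 1.82 and 1.77. TRIB3, a pseudokinase of the stress response, had 2.01, 1.94 and 1.93. JUP, which encodes plakoglobin, had 1.97, 1.84 and 2.00. The members of PAX9, TRIB3 and JUP had no reference start within 1 kb. CTDSP1, a small phosphatase of the RNA polymerase II tail, had 1.81, 2.16 and 1.74. ESRRA, the estrogen-related receptor alpha, had 2.23, 2.01 and 2.08. At the edge of the rule, 79 members lay within the last 100 bp of the 1 kb window and had median fold enrichments of 4.0, 3.73 and 3.31. The 70 regions with a peak in all 3 lists that lay up to 100 bp beyond that window had 3.8, 3.74 and 3.13.

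Peaks at members were broad and often held several summits. Median widths were 787 bp (quartiles 520 and 1097) in the NTG list, 807 bp (538 and 1133) for siINO80#1 and 654 bp (394 and 976) for siINO80#2. In regions away from starts the medians were 462, 488 and 432 bp, and at coding starts in both directions they were 957, 968 and 826 bp. More than a single summit was present in 61.4% of member peaks in NTG, 64.5% in siINO80#1 and 55.0% in siINO80#2. Neighboring summits in a peak lay a median of 254, 247 and 243 bp apart. Members with a non-coding start on the other strand had wider peaks, at 912, 960 and 782 bp, than members without, at 737, 755 and 613 bp. Stronger peaks were wider, with medians of 1024, 1077 and 1042 bp in the top decile of members by rank and 395, 387 and 286 bp in the bottom decile.

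**Figure D1:**
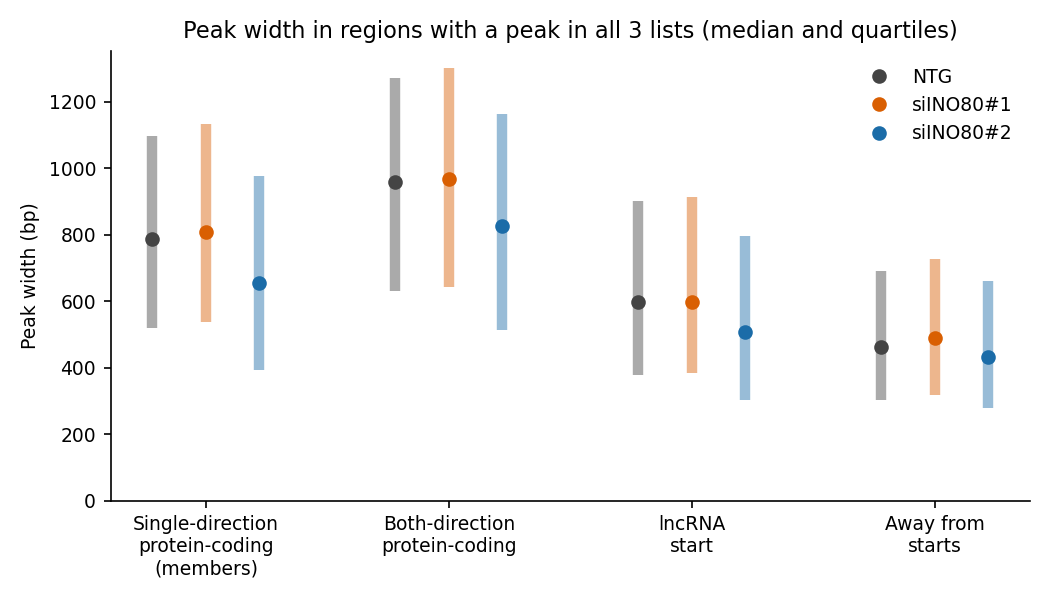
Peak width in bp (vertical axis) of regions with a peak in all 3 lists, by class of region and by list; points are medians and bars run from the lower to the upper quartile. Members had medians of 787, 807 and 654 bp in NTG, siINO80#1 and siINO80#2, between those at coding starts in both directions and those at lncRNA starts.

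Set against the NTG peak of the same member, the median peak had 102% of its width in siINO80#1 and 88.8% in siINO80#2. The peak was narrower than in NTG at 46.6% of members in siINO80#1 and at 66.4% in siINO80#2. Away from starts the median was 103% and 94.7%. Members had wider peaks in NTG to begin with, and the classes were also described within 6 bins of NTG width. The bins and the ratios use the same NTG width, so this does not remove the difference in width between the classes. In siINO80#1, for example, the median of members was 135% below 400 bp and 92.8% from 1500 bp. In siINO80#1 the median of members was above that of regions away from starts in each bin, for example 99.7% at 1422 members against 90.3% at 1519 regions of 800 to 1000 bp. In siINO80#2 the order depended on the bin. Members were lower below 400 bp, at 105% against 119%, and from 400 to 600 bp, at 86.8% against 88.0%, and higher in the 4 wider bins, for example 86.0% against 80.3% from 800 to 1000 bp. The widest merged members were GSTO1, a glutathione transferase, with 3488 bp, SMPDL3A, a phosphodiesterase, with 3460 bp, and SMARCA2, an ATPase of SWI/SNF remodeling complexes, with 3367 bp. The SMPDL3A peak was 3238, 3460 and 3428 bp wide in NTG, siINO80#1 and siINO80#2. In SMARCA2 the interval with the strongest summit was 869, 2304 and 992 bp wide. In GSTO1 it was 1855, 218 and 360 bp wide, and the region held 2, 3 and 4 separate intervals.

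The strongest summit of a member lay most often just before the reference start. Its median position was 68, 66 and 69 bp upstream in NTG, siINO80#1 and siINO80#2. It lay upstream of the start in 68.5% (67.4 to 69.6), 70.3% (69.2 to 71.3) and 69.1% (68.0 to 70.2) of 7211 members. Between 150 bp before and 50 bp after the start lay 48.4% of summits in NTG, 54.4% in siINO80#1 and 49.2% in siINO80#2. Compared with NTG at the same member, the summit had a median displacement of 1 bp with siINO80#1 and 0 bp with siINO80#2, and it stayed within 50 bp at 57.5% and 54.0% of members. The start itself lay inside the peak in 82.5% of members in NTG, 85.4% in siINO80#1 and 77.1% in siINO80#2, and inside the peak of all 3 lists in 5311 members (73.7%).

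**Figure D2:**
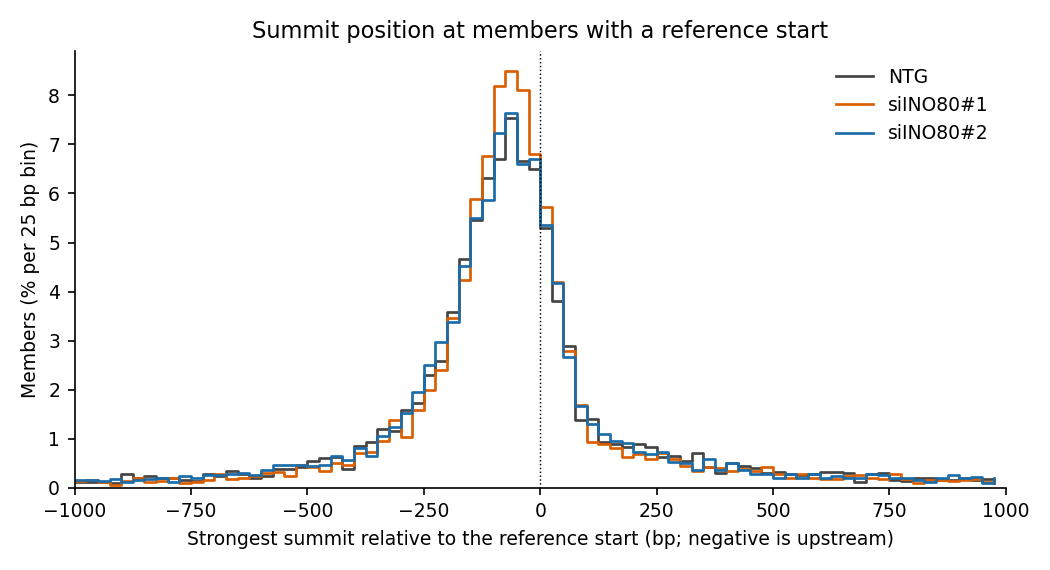
Position of the strongest summit of each member relative to the reference start in bp (horizontal axis, negative is upstream) as the percent of members per 25 bp bin, 1 line per list. All 3 lists peak shortly before the start, with medians of -68, -66 and -69 bp in NTG, siINO80#1 and siINO80#2, and siINO80#1 has the highest maximum.

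The edges of the peaks differed more than the summits. In NTG, siINO80#1 and siINO80#2 the upstream edge lay a median of 420, 418 and 377 bp before the start. The downstream edge lay 389, 412 and 307 bp after it. At the same member, the downstream edge was moved outward by a median of 10 bp with siINO80#1 and inward by 35 bp with siINO80#2, whereas the upstream edge moved 1 bp outward and 21 bp inward. With siINO80#2 the downstream edge was closer to the promoter at 62.6% of members. This list was also the shortest, and the part of peak calling in the narrower peaks was not tested.

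Sequence composition, which the rule did not use, differed between members and promoters without a peak. From 250 bases before to 50 after the reference start, a window was called CpG-rich when G and C made up more than 50% and CG was found at more than 0.6 of its expected frequency. This held for 86.9% (86.1 to 87.7) of the 7104 reference promoters at members, 65.9% (65.2 to 66.5) of 18893 protein-coding promoters and 36.6% (35.5 to 37.7) of 7316 promoters without a peak in any list. Promoters at regions with starts in both directions reached 91.0% (89.6 to 92.1), and single-direction promoters with a peak in 1 or 2 lists 69.7% (67.7 to 71.5). At the NTG summits themselves, 75.9% of members were CpG-rich, against 4.18% of regions away from starts.

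The rank of members did not follow G and C content evenly. Members were put into 5 equal groups by the content of their promoter. In the group with the lowest content, 31.0% to 58.3%, the median percentile was 65.2 in NTG, 63.0 in siINO80#1 and 62.9 in siINO80#2. It was highest in the next group, at 69.7, 67.3 and 67.6. In the group with the highest content, 73.7% to 88.7%, it was lowest, at 49.3, 51.9 and 42.7. The peak in siINO80#2 had a median of 89.5% of its NTG width in the group of lowest content and 84.9% in the highest, and in siINO80#1 the corresponding values were 99.6% and 106%.

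Short motifs were searched by their exact letters on both strands of the same 300 base windows, with N for any base. No motif contains the letters of another, and matches of motifs such as NRF1 and the CCAAT box on the 2 strands can overlap. The GC box of SP/KLF factors, GGGCGG, was present in 73.8% (72.8 to 74.8) of member promoters, 61.7% of all protein-coding promoters and 44.2% of promoters with no peak. ETS letters, CCGGAAG, were present in 19.5% (18.6 to 20.4), 14.1% and 5.07%. The CCAAT box of NFY, CCAAT, had 39.1% (38.0 to 40.3), 35.7% and 32.8%. NRF1, GCGCATGCG, had 3.81% (3.39 to 4.29), 2.72% and 0.957%, and YY1, AAGATGGCG, had 4.31% (3.86 to 4.8), 2.86% and 0.724%. The cyclic AMP response element (CRE), TGACGTCA, had 3.8% (3.38 to 4.27), 2.74% and 1.42%, and the E box of USF, CACGTG, had 9.98% (9.30 to 10.7), 8.63% and 6.53%.

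The order was the reverse for the TATA box, TATAAA, which was present in 5.38% (4.88 to 5.93) of member promoters, 9.75% of all and 16.5% of those with no peak. AP-1 letters, TGANTCA, had 4.0% (3.57 to 4.48), 5.37% and 7.68%. ZNF143, CCCAGNATG, had 1.84%, 1.83% and 1.76%, and CTCF, AGGGGGCGC, had 3.0%, 2.64% and 2.21%. Letters of hepatocyte factors were rare. FOXA, TGTTTAC, had 2.2% (1.88 to 2.56) in members, 2.48% in all and 2.95% (2.59 to 3.37) without a peak. HNF4A, CAAAGTCCA, had 0.296%, 0.349% and 0.328%, and HNF1, GTTAATNAT, had 0.352%, 0.503% and 0.615%, and for both the intervals of members and of promoters without a peak overlapped.

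**Figure D3:**
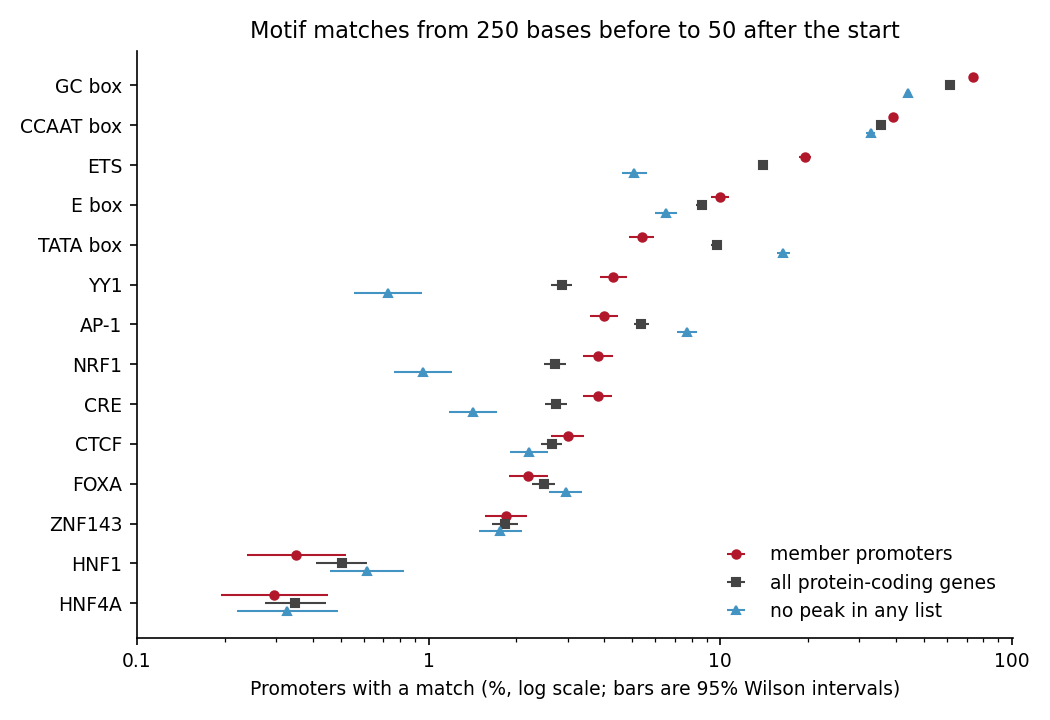
Percent of promoters (horizontal axis, log scale) with a match to each of 14 motifs, for member promoters, all protein-coding promoters and promoters with no peak in any list; bars are 95% Wilson intervals. The GC box is found in 73.8% of member promoters against 44.2% of those without a peak, and the TATA box in 5.38% against 16.5%.

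The order of several motifs depended on CpG content. Among CpG-rich promoters alone, the GC box was present in 79.7% (78.7 to 80.7) of members and in 86.1% (84.8 to 87.4) of promoters without a peak, so its order turned. ETS letters kept theirs, at 20.8% (19.8 to 21.8) against 9.89% (8.82 to 11.1), as did the CCAAT box at 38.0% (36.8 to 39.2) against 26.8% (25.2 to 28.5). YY1 letters were present in 4.70% (4.20 to 5.25) against 1.72% (1.29 to 2.28). The order also turned for CTCF, at 3.38% (2.96 to 3.86) against 5.45% (4.65 to 6.37), and for FOXA, at 1.99% (1.67 to 2.37) against 0.971% (0.663 to 1.42). For AP-1, at 3.09% against 2.58%, and the E box, at 10.6% against 10.1%, the intervals overlapped. Single-direction members also held fewer ETS letters than promoters with starts in both directions, 19.5% against 29.6% (27.6 to 31.6), and more TATA boxes, 5.38% against 3.60% (2.87 to 4.51).

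Matches had preferred places within member promoters. ETS letters were centered at a median of 40 bp before the start, NRF1 at 55, the CRE at 57.5, the GC box at 80.5 and the CCAAT box at 95 bp. In promoters with no peak in any list these medians were 43, 43, 49.5, 71.5 and 91 bp, so such places were not particular to members. YY1 letters were centered 17 bp after the start, 80.8% of them lay downstream and 84.0% read along the gene. In promoters with no peak these values were 7 bp, 57.4% and 70.4%. Of the TATA boxes, 39.3%, against 40.7% in promoters with no peak, lay 20 to 40 bp before the start. The 167 members with a TATA box there had median percentiles of 45 in NTG, 45.2 in siINO80#1 and 43.3 in siINO80#2, and 67.7% of them were CpG-rich. Summits of the 2790 members with a CCAAT box lay a median of 83, 81 and 84 bp before the start.

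Members with some motifs ranked higher than members without. With a CCAAT box the median percentile was 69.1 in NTG, 66.5 in siINO80#1 and 65.3 in siINO80#2, against 58.1, 58.9 and 55.6 without. With ETS letters it was 67.5, 64.9 and 64.6, against 61.5, 60.3 and 58.1. With the GC box it was 62.3, 61.6 and 58.6, against 62.9, 61.7 and 60.5. With YY1 letters it was 55.0, 55.3 and 54.5, against 62.8, 61.7 and 59.1. These members shared 3 lists and their values were not tested.

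Summits at members and in regions away from starts held different letters. Within 100 bases either side of the strongest NTG summit, the GC box was found in 55.6% (54.6 to 56.7) of members and 6.68% (6.32 to 7.06) of regions away from starts. ETS letters were found in 12.9% (12.2 to 13.6) against 1.38% (1.22 to 1.56). AP-1 letters were found in 5.28% (4.81 to 5.78) against 26.1% (25.5 to 26.8). The 433 members with AP-1 letters at the summit had median percentiles of 50.6 in NTG, 52.1 in siINO80#1 and 54.9 in siINO80#2, and their median change from NTG was 1.22 and 0.88 percentile points. In the 4554 regions away from starts with AP-1 letters the medians were 40.9, 53.2 and 58.0, and the changes were 6.97 and 9.80 points.

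Ranks of members were close between lists but not fixed. A region was counted as higher or lower when its percentile differed by at least 10 points between 2 lists. From NTG to siINO80#1, 1653 members (20.1%) were higher and 1986 (24.2%) lower, where all 29350 shared regions had 26.5% and 27.6%. From NTG to siINO80#2, 1518 (18.5%) were higher and 2406 (29.3%) lower, where all shared regions had 27.9% and 29.2%. From siINO80#1 to siINO80#2, 1423 (17.3%) were higher and 2008 (24.5%) lower, where all shared regions had 24.3% and 24%. Members thus had a smaller share of higher ranks than all shared regions in each comparison. Their share of lower ranks was near that of all shared regions in the comparisons with siINO80#2. Regions with coding starts in both directions had still fewer higher ranks, at 16.0%, 16.2% and 15.0%, so this trait was not particular to members. The part of the starting rank in these shares was not tested. The first and the second comparison share the NTG list. The median change of members was -0.49, -1.33 and -0.68 percentile points. Across members, the Spearman correlation of the ranks was 0.864 between NTG and siINO80#1, 0.843 between NTG and siINO80#2 and 0.887 between the depletion lists, as a description over 8208 regions that come from the same 3 lists.

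The members whose ranks stood furthest above NTG in both depletion lists were named by their smaller change. SETDB1, a histone H3 lysine methyltransferase, had fold enrichments of 2.70 in NTG, 5.83 in siINO80#1 and 5.37 in siINO80#2, and peaks of 421, 713 and 553 bp. FHL2, a LIM domain cofactor, had 2.13, 5.36 and 4.95. IFRD1, a transcriptional coregulator, had 3.35, 6.58 and 5.36, and its peak was 423 bp wide in NTG against 1044 and 1075 bp. EPS8, an actin regulator, had 3.53, 6.34 and 6.0. These 4 promoters were chosen for ranks above NTG in both depletion lists. The members of FHL2, IFRD1 and EPS8 had no reference start within 1 kb and touched another coding start only.

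The members furthest below NTG in both depletion lists included SERPINC1, the gene of the plasma inhibitor antithrombin. Its fold enrichment was 9.80 in NTG, 3.78 in siINO80#1 and 3.36 in siINO80#2, which placed it at percentile 93.6, 31.3 and 32.5. Its merged region lay at chr1:173886177-173887299 on GRCh37, and the strongest summit lay 40, 395 and 6 bp before the start. LDLRAD4, a regulator of TGF-beta signaling, had 6.85, 2.92 and 2.53, without a reference start within 1 kb. PTPRO, a receptor tyrosine phosphatase, had 8.09, 3.57 and 2.84, with peaks of 840, 689 and 201 bp. ENSG00000282804, a gene without a symbol, had 7.68, 3.25 and 3.0. No replicate was available for these extremes, which were picked for their size out of 8208.

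Members differed by chromosome. The median percentile was lowest on chromosome 22, at 37.1 in NTG, 29.5 in siINO80#1 and 28.4 in siINO80#2, followed in NTG by chromosomes 16, 20, 17 and 19 at 40.3, 41.8, 43.6 and 44.3. In the other lists these chromosomes stood at 36.8, 38.9, 39.1 and 39.4 with siINO80#1, and at 32.5, 33.0, 33.9 and 35.5 with siINO80#2. Chromosomes 5, 13, 7 and 4 were the highest in NTG, at 70.9, 70.4, 70.0 and 69.6. With siINO80#1 and siINO80#2 the median was 74.0 and 72.5 for chromosome 13, and 73.5 and 73.7 for chromosome 4. Shared regions other than members were also low on chromosomes 16, 17, 19, 20 and 22, with NTG medians of 33.7, 37.0, 35.3, 31.7 and 35.2, and also on chromosome 14 at 31.8. Median promoter G and C content was 67.0%, 65.8%, 62.7%, 67.3% and 67.3% on these chromosomes, against 66.0% over all member promoters. Median widths ran from 536 bp on chromosome 19 to 929 bp on chromosome 6 in NTG.

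**Figure D4:**
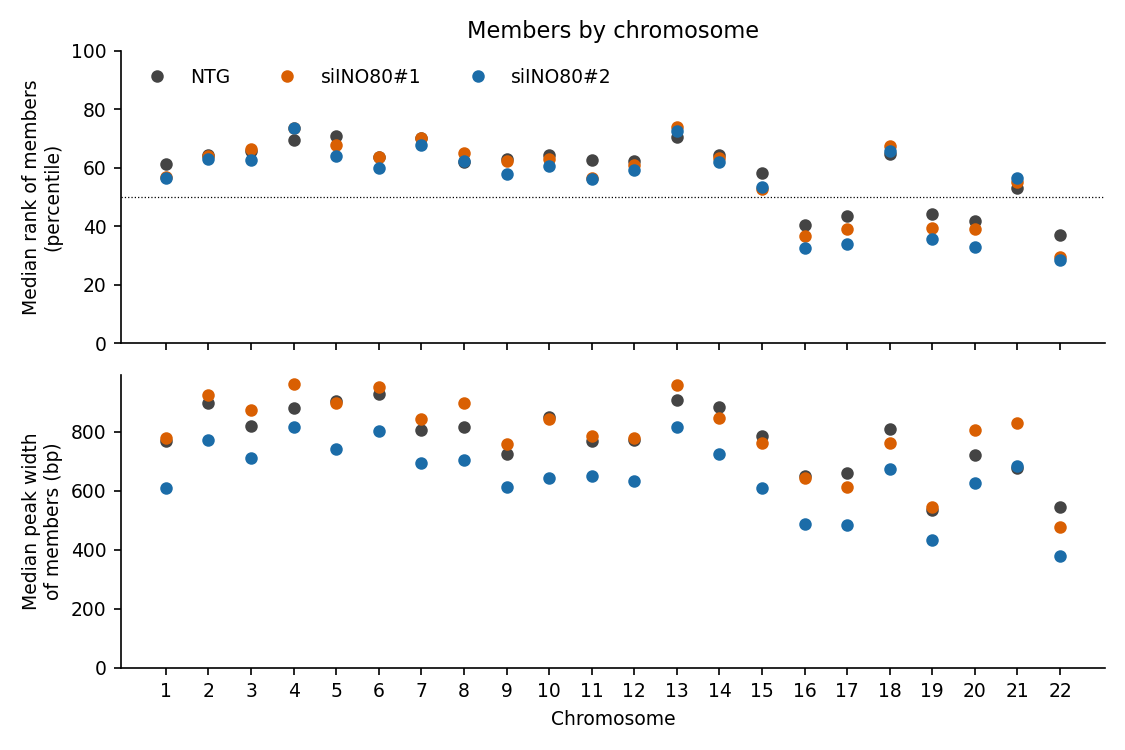
Median rank of members (upper panel, percentile among regions with a peak in all 3 lists) and median peak width of members in bp (lower panel) on each chromosome, 1 point per list. Chromosomes 16, 17, 19, 20 and 22 lie below the 50th percentile in all 3 lists.

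The share of genes with a member promoter differed between sets of broadly used cell machinery. Of all 18893 protein-coding genes on these chromosomes, 7539 (39.9%) had a member and 50.9% had a region with a peak in all 3 lists in a single or in both directions. Among 24 vesicle coat genes, 18 had a member and 3 more a stable region in both directions. Among 35 translation initiation factors the numbers were 23 and 7, among 29 ubiquitin-conjugating enzymes 20 and 1, and among 76 mitochondrial ribosomal proteins 40 and 22. Of 20 aminoacyl-tRNA synthetases, 11 had a member and 6 a stable region in both directions, which left 3 without a stable region. Of 30 autophagy genes the numbers were 17 and 8, and of 29 Mediator subunits 13 and 8. Of 12 RNA polymerase II subunits, 3 had a member, 4 a stable region in both directions, 2 a peak in 1 or 2 lists and 3 no peak. The share with a member was 25% (8.89 to 53.2) for these subunits and 44.8% (28.4 to 62.5) for Mediator. It was 55% (34.2 to 74.2) for the synthetases and 56.7% (39.2 to 72.6) for autophagy genes. These intervals include the 39.9% of all genes. Those of vesicle coat genes, 75% (55.1 to 88.0), and of the other sets here lay above it.

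**Figure D5:**
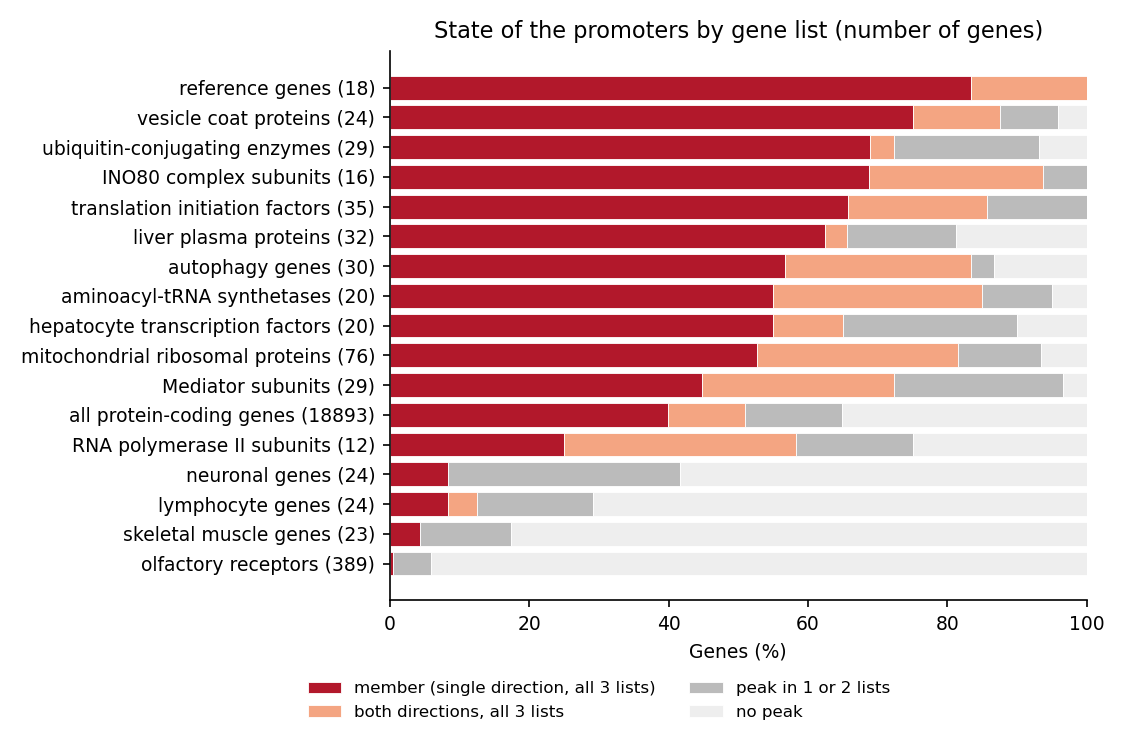
Percent of the genes of each list (horizontal axis, number of genes in parentheses) whose promoter was a member, lay in a stable region with starts in both directions, had a peak in 1 or 2 lists, or had no peak. Members made up 83.3% of reference genes, 39.9% of all protein-coding genes and 0.514% of olfactory receptors.

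Up to 3 members of highest rank were named in each of these gene lists, and the following were among them. MRPS9, a mitochondrial ribosomal protein, had fold enrichments of 13.5 in NTG, 12.2 in siINO80#1 and 11.9 in siINO80#2. LARS1, the leucyl-tRNA synthetase, had 12.6, 11.7 and 11.4. PIK3C3, the lipid kinase of autophagy, had 11.8, 10.7 and 9.67, and SEC23B, a COPII coat protein, had 11.5, 10.7 and 9.58. CCNC, the cyclin of the Mediator kinase module, had 10.8, 11.8 and 9.23. EIF3F, a subunit of initiation factor eIF3, had 10.3, 8.86 and 9.53. POLR2G, the lowest by rank of 3 RNA polymerase II subunit members, differed more. It had 6.27, 3.87 and 3.38 and peaks of 711, 506 and 273 bp. POLR2D, the highest of the 3, had 9.20, 8.02 and 6.12. UBE2N, a ubiquitin-conjugating enzyme, had 7.54, 9.40 and 6.54.

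The promoters of the INO80 complex itself were among the members in 11 of 16 subunits, and 4 more lay in stable regions with starts in both directions. At the promoter of INO80, the siRNA target, fold enrichment was 4.51 in NTG, 4.95 in siINO80#1 and 4.09 in siINO80#2, and the peak was 1548, 823 and 610 bp wide. Its rank was 41.1, 54.5 and 50.3, so the peak was narrower in both depletion lists while its rank was not lower. ACTL6A, an actin-related subunit, had 10.8, 11.8 and 9.40. INO80D had 7.32, 7.62 and 7.06, and RUVBL1, an AAA+ ATPase of the complex, had 9.41, 6.82 and 6.47. INO80B was among the weak members with 2.34, 2.55 and 2.53.

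Reference genes used to normalize expression assays had a member in 15 of 18 cases and a stable region in both directions in the other 3. Broad use did not go with a high rank in each case. ACTB, cytoplasmic actin, had fold enrichments of 2.28 in NTG, 2.69 in siINO80#1 and 2.10 in siINO80#2, and GAPDH, a glycolytic enzyme, had 3.22, 3.15 and 2.44. EEF1A1, a translation elongation factor, had 7.33, 7.86 and 7.59. From NTG, 2 reference genes were higher and 2 lower by at least 10 points in siINO80#1, and 6 were higher and 6 lower in siINO80#2. Over all shared regions these shares were 26.5% and 27.6% with siINO80#1, and 27.9% and 29.2% with siINO80#2.

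Genes of the liver were found among the members. Of 32 plasma protein genes of the liver, 20 had a member, 1 a stable region in both directions, 5 a peak in 1 or 2 lists and 6 no peak. Genes in the last group were APOE, FGB, HP, ITIH1, ITIH3 and A1BG. ALB and AFP, which encode albumin and alpha-fetoprotein, had a peak in 1 or 2 lists. Of 20 hepatocyte transcription factors, 11 had a member. The share with a member was thus 62.5% (45.3 to 77.1) for plasma protein genes and 55% (34.2 to 74.2) for these factors. Over all protein-coding genes it was 39.9%, which the interval of the factors includes. Of genes of other tissues, 2 of 24 neuronal, 2 of 24 lymphocyte, 1 of 23 skeletal muscle and 2 of 389 olfactory receptor genes had a member. GRIA2, a glutamate receptor gene among them, had fold enrichments of 5.87, 5.52 and 5.05. CD8A, a T cell coreceptor, had 5.47, 3.53 and 3.51, and TTN, the sarcomere protein titin, had 5.83, 4.99 and 2.98, both without a reference start within 1 kb.

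Liver plasma protein promoters had median percentiles of 38.4 in NTG, 26.5 in siINO80#1 and 29.7 in siINO80#2 over 20 members, against 64.3, 62.7 and 60.9 over the genes of all members. From NTG to siINO80#1, 3 were higher and 9 lower by at least 10 points, where all shared regions had 26.5% and 27.6%. From NTG to siINO80#2, 2 were higher and 8 lower, where all shared regions had 27.9% and 29.2%. SERPINC1, described above, is a gene of this list. ITIH4, an inter-alpha-trypsin inhibitor chain, had fold enrichments of 5.18 in NTG, 2.58 in siINO80#1 and 2.98 in siINO80#2. AHSG, the fetuin A gene, had 3.78, 2.47 and 2.47. F2, the prothrombin gene, had 7.45, 4.61 and 4.46. FGA and FGG, the fibrinogen alpha and gamma chains, were the strongest by their smallest percentile over the 3 lists. They had 9.55, 10.9 and 7.74 and 9.99, 8.63 and 10.2. TTR, the thyroxine carrier transthyretin, had 3.94, 4.51 and 5.19.

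Of the 11 hepatocyte transcription factors with a member, 0 were higher and 3 lower in siINO80#1, where all shared regions had 26.5% and 27.6%, so the count of lower ranks was near the background. In siINO80#2, 0 were higher and 6 lower, where all shared regions had 27.9% and 29.2%. TBX3, a T-box factor, had fold enrichments of 10.6 in NTG, 6.67 in siINO80#1 and 5.43 in siINO80#2. NR0B2, the orphan receptor SHP, had 7.16, 4.88 and 4.27. HNF4A, a nuclear receptor central to hepatocyte genes, had 3.71, 3.67 and 2.52. HNF4G, whose member had no reference start within 1 kb, had 9.22, 8.34 and 8.07, and PROX1 had 5.43, 5.09 and 4.66. By rank, TBX3 stood at 95.8, 77.0 and 73.6 and NR0B2 at 78.9, 53.5 and 54.9, below NTG in both depletion lists. HNF4G stood at 91.4, 88.4 and 92.5 and PROX1 at 58.0, 56.8 and 62.0, so both were above NTG in siINO80#2, and HNF4A stood at 24.8, 28.8 and 7.59.

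A related set was given by sequence. HNF1 letters were present at 25 members, whose median percentile was 76.0 in NTG, 54.5 in siINO80#1 and 55.5 in siINO80#2. Their median change from NTG was -13.0 and -5.76 points, against -0.39 and -1.30 in the 7186 members without these letters. The set included FGA at 92.8, 96.7 and 91.2, IGFBP1, an insulin-like growth factor binding protein, at 22.9, 13.2 and 16.4, and NPC1L1, a sterol transporter, at 76.1, 54.5 and 70.3. MYCN stood at 41.1, 12.9 and 23.9, and C5, a complement gene, at 12.4, 23.8 and 25.7. This set was 1 of 14 motifs looked at, it is small, and it shares FGA with the plasma protein list. Around the strongest NTG summit, HNF1 letters were present at 43 members, with median percentiles of 39.6, 52.8 and 47.5. Their median changes from NTG were -2.58 and 1.27 points, so the lower ranks depended on the window. In the promoter window, the changes were 0.027 and -1.48 with HNF4A letters and 0.79 and -0.96 with FOXA letters.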

How the data were processed

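ATAC-seq was done by the authors on HepG2 cells after siRNA transfection (9 samples, grouped by sample title). Per the labels, the processing notes name Trim Galore 0.4.1, Bowtie2, SAMtools, MACS2, deepTools 2.2.4 and hg19; the ATAC-seq parameters, the transposase offset and the filter on peaks are not given in the sources used here. The deposited lists, 1 per siRNA, hold intervals with summits. Each summit has a fold enrichment (a ratio over local background) and a −log10 q as the authors' peak caller gave them, with a minimum −log10 q of 1.30 per list; the −log10 p column was not used. The number of reads is unknown, and a shallower library gives fewer and narrower peaks. Pooling hides replicate spread. Fold enrichments are given side by side, and lists were compared by rank, since the ratio was lower over all members in the depletion lists.

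Intervals were merged at distance 0. Each list was represented by its interval with the strongest summit. Starts came from GENCODE release 44 lifted to GRCh37. On that build 0 peaks ended beyond a chromosome and 0 summits fell on unknown bases. Promoter sequence was read from GRCh37. Shares have 95% Wilson intervals, and no test was made. Merging, classes, motif search and percentiles were tested on simulated data and recovered 217 of 217 merged intervals, 800 of 800 regions, 280 of 280 motifs and 1000 of 1000 percentiles.

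Named members were the 6 strongest and 6 weakest by rank, the 4 with the largest change from NTG each way and the 3 widest regions. Up to 3 of each gene list were added. For each of 9 motifs, the carrier of highest smallest percentile was taken, with chromosome 8 left out. INO80, ALB, AFP, the list genes given beside these and the carriers of HNF1 letters were named after their values were seen. The members and gene lists were chosen with earlier results of these data known. Some members named by this rule are not reported here. MYLPF of the skeletal muscle list was not found in the annotation. Python 3.11.15, pandas 2.3.3, numpy 2.4.6, scipy 1.17.1, matplotlib 3.10.9 and bedtools 2.31.1 were used.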

Additional observations from a re-analysis of the deposited data

Results flagged for a closer look

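Some summary values of the members moved one way from NTG to siINO80#1 and the opposite way from NTG to siINO80#2. The differences between the siRNAs were not tested, since each had 1 list. The median peak width was 20 bp larger in siINO80#1 and changed by -133 bp in siINO80#2. The share of member peaks with several summits was 3.12 percentage points larger in siINO80#1 and changed by -6.41 points in siINO80#2. The downstream edge lay a median of 23 bp further from the start in siINO80#1 and changed by -82 bp in siINO80#2. The share of peaks that held the reference start was 2.83 points larger in siINO80#1 and changed by -5.46 points in siINO80#2. The siINO80#2 list also had 53113 peaks against 69333 in siINO80#1.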

How the results depend on the processing

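No paired analysis was possible because the 3 replicates of a group share 1 list, and for the same reason no replicate could be left out. Under 13 alternatives, 107 values were recomputed, of which 53 stayed within the counting interval of the value as reported (counts within 1.5 times), 54 moved and 0 reversed. Reversed meant a change of sign, which only the summit positions could show, since counts, shares, widths and ranks are never negative. The causes were not tested.

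The share of single-direction regions with a peak in all 3 lists was 66.6% at a minimum −log10 q of 5, 66.2% with lists of equal size (the 74888 strongest summits), 67.2% with a window of 500 bp, 55.4% with 2.5 kb, 57.6% with all transcripts of coding genes and 58.8% with no start of any gene type on the other strand. Median ranks in NTG, siINO80#1 and siINO80#2 were 65.8, 64.6 and 61.3 by −log10 q, 82.1, 81.4 and 74.3 among all peaks of a list, and 58.4, 56.7 and 54.7 without chromosomes 2, 6, 14 and 20. Median widths in this order were 891, 926 and 786.5 bp at a minimum −log10 q of 5, 818, 842.5 and 689 bp at equal list size, and 762, 779.5 and 628 bp without these chromosomes, so siINO80#2 had the narrowest peaks throughout.

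At that minimum the median summit position was -73 bp in NTG and -71 bp in siINO80#1, and upstream shares were 71.4%, 72.9% and 72.1%. From the nearest coding start, positions were -43, -42 and -43 bp and upstream shares 65.7%, 67.8% and 66.4%. Around the summit in place of the start, shares were 55.6% for the GC box, 30.1% for the CCAAT box, 12.9% for ETS, 1.88% for NRF1, 1.84% for YY1, 1.55% for ZNF143, 1.56% for the CRE, 6.01% for the E box, 2.39% for the TATA box, 5.28% for AP-1, 2.11% for CTCF and 0.524% for HNF1, and 75.9% were CpG-rich.

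At a change of 20 points, 641 members (7.81%) were higher and 892 (10.9%) lower in siINO80#1 than in NTG, against 14.1% and 14.2% of all shared regions. From NTG to siINO80#2 the numbers were 661 (8.05%) and 1206 (14.7%), against 16% and 16.1%, and from siINO80#1 to siINO80#2 they were 558 (6.8%) and 904 (11%), against 11.2% and 11.3%.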
